A study of Mus musculus with 2 samples.

Results

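Committed oligodendrocyte precursors are the brief intermediate stage between dividing oligodendrocyte precursors and myelinating oligodendrocytes. Single nuclei of mouse hippocampus were searched for them with 5 genes of that stage: Gpr17, Enpp6, Bmp4, Neu4 and 9630013A20Rik. A nucleus was taken as a member when it had at least 500 detected genes and under 5% of its unique molecular identifiers (UMIs, counted RNA molecules) from mitochondrial genes. The 5 genes together had to give at least 4 UMIs and at least 0.15% of all UMIs of the nucleus, with at least 2 of the 5 detected. Nuclei with over 1 UMI of Gad1 and Gad2, markers of inhibitory neurons, or over 2 UMIs of Inpp5d and Runx1, markers of microglia, were left out. The members were thus selected on the RNA levels of these 9 genes, and their levels are given only as a description. The rule found 94 members among 37671 kept nuclei. Of these, 60 lay among 22263 kept nuclei of the library labelled MR1 knockout, and 34 among 15408 kept nuclei of the 5XFAD library.

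The libraries came from hippocampi of mice aged 8 months. One library was made from 5XFAD mice that also lack MR1 according to the labels (5XFAD x MR1 KO), the other from 5XFAD mice with MR1 intact, so every mouse carried the 5XFAD transgenes. The transgenes include human APP with mutations of familial Alzheimer's disease, expressed under the Thy1 promoter, which is active mainly in neurons. MR1 is an antigen-presenting molecule related to MHC class I that displays metabolites of microbial riboflavin synthesis to MAIT cells, a class of innate-like T lymphocytes. Each library pooled a male and a female mouse, and each group had 1 library. Nuclei of 1 library are not replicates, so no test between the groups was possible, and all intervals below cover counting error only.

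Oligodendrocyte precursors carry Pdgfra, Cspg4 and Ptprz1 and persist in the adult brain. When one leaves the cell cycle it switches these genes off, passes through a stage with Gpr17, Bcas1, Enpp6 and Tcf7l2, and then either dies or turns on the myelin genes. The stage is short, so nuclei of it are rare in adult tissue. Of the 5 genes of the rule, Gpr17 encodes a G protein-coupled receptor that holds back maturation, and Enpp6 a choline-releasing phosphodiesterase of newly forming oligodendrocytes. Bmp4 encodes a secreted ligand of the TGF-beta superfamily, Neu4 a sialidase, and 9630013A20Rik is a long noncoding RNA annotated opposite to Pcdh17.

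The promoters of the genes that choose the nuclei are shown because every later comparison rests on these genes. RefSeq sequences of build GRCm38.p6 from 250 bases before to 50 bases after the gene start were matched for 4 of the 5 genes. They lie at chr14:84476375-84476674 on the minus strand for 9630013A20Rik, chr8:46986637-46986936 on the plus strand for Enpp6, chr14:46390620-46390919 on the minus strand for Bmp4 and chr1:94020243-94020542 on the plus strand for Neu4. Capitals mark letters of 3 motifs, searched on both strands: ACAAAG or ACAATG for SOX factors, CAGCTG or CAGATG for E-box factors such as Olig2, and ATCAAAG for TCF factors.
9630013A20Rik: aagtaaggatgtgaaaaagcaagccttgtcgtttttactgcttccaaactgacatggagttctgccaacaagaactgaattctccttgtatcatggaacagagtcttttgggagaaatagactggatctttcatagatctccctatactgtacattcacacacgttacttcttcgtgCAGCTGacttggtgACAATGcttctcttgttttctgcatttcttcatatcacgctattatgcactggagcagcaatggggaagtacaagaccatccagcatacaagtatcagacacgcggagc
Enpp6: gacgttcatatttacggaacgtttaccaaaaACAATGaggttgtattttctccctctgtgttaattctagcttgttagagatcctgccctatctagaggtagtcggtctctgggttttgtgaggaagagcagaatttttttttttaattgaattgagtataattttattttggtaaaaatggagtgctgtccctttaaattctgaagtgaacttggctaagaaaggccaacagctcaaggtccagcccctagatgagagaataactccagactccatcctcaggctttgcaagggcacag
Bmp4: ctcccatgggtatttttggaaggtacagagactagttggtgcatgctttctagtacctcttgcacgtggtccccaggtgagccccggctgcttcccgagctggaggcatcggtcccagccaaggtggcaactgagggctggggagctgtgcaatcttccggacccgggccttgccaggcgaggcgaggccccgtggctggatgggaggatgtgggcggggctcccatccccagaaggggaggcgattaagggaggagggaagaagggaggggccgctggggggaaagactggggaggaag
Neu4: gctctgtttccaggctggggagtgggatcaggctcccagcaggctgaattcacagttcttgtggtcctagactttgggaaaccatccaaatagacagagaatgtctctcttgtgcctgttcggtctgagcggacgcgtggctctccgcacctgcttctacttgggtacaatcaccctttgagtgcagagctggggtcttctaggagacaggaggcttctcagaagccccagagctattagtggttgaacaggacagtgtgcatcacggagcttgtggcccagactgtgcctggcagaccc
The 9630013A20Rik promoter held CAGCTG at position -73 and ACAATG at position -59, and the Enpp6 promoter held ACAATG at position -219, counted from the gene start. No match lay in the Bmp4 or Neu4 window. Among 32851 promoters of the same length, the SOX letters occurred in 28.6%, the E-box letters in 30.6% and the TCF letters in 3.73%. A match of this kind is a description of the letters and not a binding site.

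The library labelled MR1 knockout had 26212 barcodes and 85678909 UMIs, and 84.9% of its barcodes passed the limits on genes and mitochondrial RNA. The 5XFAD library had 25238 barcodes and 106861726 UMIs, and 61.1% of its barcodes passed. The mitochondrial limit alone removed 2339 barcodes of the library labelled MR1 knockout and 9047 of the 5XFAD library. Kept nuclei had a median of 2767 UMIs in the library labelled MR1 knockout and 4066 in the 5XFAD library. The targeted gene Mr1 had 93 UMIs in kept nuclei of the library labelled MR1 knockout and 61 in those of the 5XFAD library. Which part of Mr1 was deleted is not given in the sources used here, so tags from its 3' end may lie outside that part and then check nothing. For that reason the first library is called by its label throughout. The libraries shared 182 barcode sequences, and 0 of these belonged to members.

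The members were shallower than kept nuclei as a whole. Those of the library labelled MR1 knockout had a median of 1781 UMIs and 1159.5 genes, and together 125590 UMIs. Those of the 5XFAD library had a median of 2350 UMIs and 1338 genes, and together 104401 UMIs. They were deeper than the classes compared with below. Oligodendrocyte precursors had a median of 1547 UMIs in the library labelled MR1 knockout and 1971 in the 5XFAD library, and oligodendrocytes had 1277 and 1683. The median mitochondrial share was 1.20% in members of the library labelled MR1 knockout and 2.48% in those of the 5XFAD library. A count of 3 UMIs over all members, taken here as the floor of detection, corresponds to 13.0 CPM (UMIs of a gene in every 1000000 UMIs of the nuclei summed). The doublet caller Scrublet marked 3 of the 60 members of the library labelled MR1 knockout and 3 of the 34 of the 5XFAD library. UMIs of both Xist and a Y-linked gene, which in these pooled libraries point to RNA of both mice, occurred in 5 members of the library labelled MR1 knockout and in 2 of the 5XFAD library.

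The 5 genes of the rule were combined in different ways from nucleus to nucleus, and their values chose the members and carry no test. The noncoding RNA 9630013A20Rik was detected in 55 of 60 members of the library labelled MR1 knockout and in 32 of 34 members of the 5XFAD library. Its level was 2977.9 CPM in members of the library labelled MR1 knockout and 3285 CPM in those of the 5XFAD library, against 33.2 CPM in all other kept nuclei of both libraries. Enpp6 was detected in 46 members of the library labelled MR1 knockout and 28 of the 5XFAD library, at 1003 CPM in members of the first library and 785 CPM in those of the second. The receptor Gpr17 was detected in 41 members of the library labelled MR1 knockout and 16 members of the 5XFAD library. Its level was 741 CPM (598 to 907) in members of the library labelled MR1 knockout and 278 CPM (186 to 399) in those of the 5XFAD library. Neu4 was detected in 26 and Bmp4 in 13 members of the library labelled MR1 knockout, and Neu4 in 13 and Bmp4 in 14 members of the 5XFAD library.

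UMIs of the rule genes occurred in other nuclei too, and whether they came from free RNA in the droplets was not tested. Whether reads were counted by strand is not given in the sources used here. Reads of Pcdh17 and of 9630013A20Rik, annotated opposite to it, therefore cannot be told apart. In neurons, 9630013A20Rik had a UMI in 11.6% of nuclei of the library labelled MR1 knockout and in 13.6% of those of the 5XFAD library. Gpr17 had one in 0.964% of neurons of the library labelled MR1 knockout and in 0.848% of those of the 5XFAD library. These neurons were deeper than the members, with a median of 3624 UMIs in the library labelled MR1 knockout and 5181 in the 5XFAD library. The members' shares were several times higher for every gene of the rule. Members were chosen on the sum of these genes, so this carries no test.

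The members with 2 of the 5 genes numbered 29, those with 3 numbered 42, those with 4 numbered 15 and those with all 5 numbered 8. The leading combinations were Enpp6 with 9630013A20Rik in 19 members, and Gpr17 with Enpp6 and 9630013A20Rik in 19 more. Gpr17 and Enpp6 were both detected in 40 members, Gpr17 without Enpp6 in 17, Enpp6 without Gpr17 in 34, and neither in 3. The summed rule genes had a median of 8 UMIs (range 4 to 53) per member of the library labelled MR1 knockout and 10.5 UMIs (range 4 to 51) per member of the 5XFAD library.

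At the edge of the rule, 12 members had exactly 4 rule UMIs, 9 of them in the library labelled MR1 knockout and 3 in the 5XFAD library. Their Bcas1 level was 2441 CPM in the library labelled MR1 knockout and 2252 CPM in the 5XFAD library. Over all members Bcas1 stood at 2556 CPM in the library labelled MR1 knockout and 2385 CPM in the 5XFAD library. Just outside, nuclei with 3 rule UMIs numbered 16 in the library labelled MR1 knockout and 7 in the 5XFAD library. Their Bcas1 level was 1766 CPM in the library labelled MR1 knockout and 725 CPM in the 5XFAD library. The limit on Gad1 and Gad2 left out 0 nuclei of the library labelled MR1 knockout and 4 of the 5XFAD library, which had Bcas1 at 1089 CPM. The limit on Inpp5d and Runx1 left out 1 nucleus of the library labelled MR1 knockout, with Bcas1 at 1584 CPM, and 3 of the 5XFAD library, with Bcas1 at 1823 CPM. Nuclei that failed only the share of UMIs numbered 18 in the library labelled MR1 knockout and 21 in the 5XFAD library, with Bcas1 at 545 CPM and 262 CPM in those libraries. Members that also met the rule for oligodendrocyte precursors numbered 4 in the library labelled MR1 knockout and 2 in the 5XFAD library, and those that also met the rule for oligodendrocytes numbered 4 in each.

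The label was checked with markers of the stage that the rule did not use, and with markers of other cell types, of which the rule itself limits Gad1, Gad2, Inpp5d and Runx1. All 9 markers of newly formed oligodendrocytes were detected in members. Summed, they reached 8026 CPM in members and 268 CPM in other kept nuclei of the library labelled MR1 knockout, and 9138 CPM in members and 258 CPM in other nuclei of the 5XFAD library. All 5 endothelial markers (Flt1, Cldn5, Pecam1, Mecom and Adgrl4) were at 0 in members, as were the T-cell genes Cd3e, Cd3g and Themis. The T-cell gene Skap1 had 1 UMI in members of the 5XFAD library. In other kept nuclei of the library labelled MR1 knockout, the endothelial list summed to 13.6 CPM and the T-cell list to 10.7 CPM. In the 5XFAD library they summed to 6.99 CPM and 10.8 CPM. These levels are near or below the floor of 13.0 CPM, so the zeros cannot check the label. Markers of excitatory neurons, 5 of 6 detected with Slc17a6 at 0, summed to 859.9 CPM in members of the library labelled MR1 knockout and 738 CPM in those of the 5XFAD library. In other kept nuclei they summed to 1993 CPM in the library labelled MR1 knockout and 1807 CPM in the 5XFAD library. Markers of inhibitory neurons summed to 255 CPM in members against 222 CPM in other kept nuclei of the library labelled MR1 knockout. In the 5XFAD library the inhibitory markers summed to 115 CPM in members against 263 CPM in other kept nuclei. All 6 astrocyte markers were detected, at 135 CPM in members against 95.2 CPM in other kept nuclei of the library labelled MR1 knockout. In the 5XFAD library they stood at 278 CPM in members against 91.3 CPM in other kept nuclei, so members were the higher in both libraries. In the 5XFAD library 1 member held 15 of the 29 astrocyte UMIs, and the median per member was 0 in both libraries. Among microglial markers, held down by the rule, 5 of 6 were detected with Runx1 at 0. They stood at 151 CPM in members against 301 CPM in other kept nuclei of the library labelled MR1 knockout, and at 354 CPM in members against 265 CPM in other kept nuclei of the 5XFAD library. Markers of oligodendrocyte precursors summed to 3320 CPM in members against 1249 CPM in other kept nuclei of the library labelled MR1 knockout. In the 5XFAD library they summed to 2624.5 CPM against 1308 CPM. Markers of oligodendrocytes summed to 788 CPM in members against 224 CPM in other kept nuclei of the library labelled MR1 knockout. In the 5XFAD library they summed to 1111 CPM against 289.6 CPM. The members therefore carried markers of newly formed oligodendrocytes and of both neighbouring stages, with some RNA of neurons and of other glia. The part of neuronal and other glial RNA in the results below was not tested.

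The members were then set against the stages on either side. Oligodendrocyte precursors were taken as nuclei with at least 3 UMIs over Pdgfra, Cspg4, Vcan and C1ql1, and oligodendrocytes as nuclei with at least 4 UMIs over Mog, Mag, Opalin, Ermn, Hapln2 and Aspa, with the same limits of 0.15% and 2 genes. The library labelled MR1 knockout had 182 oligodendrocyte precursors and 462 oligodendrocytes, and the 5XFAD library had 109 oligodendrocyte precursors and 600 oligodendrocytes. A gene was counted when its CPM ratio was at least 2, or at most 0.5, in each library, with at least 50 UMIs over both classes. The 5 genes of the member rule, and the genes that chose the class compared with, were left out of the counts. Against oligodendrocyte precursors, 200 of 3152 genes (6.35%) were higher in members and 284 (9.01%) lower, and the median log2 ratio over all genes was -0.11. Against oligodendrocytes, 300 of 7521 genes (3.99%) were higher in members and 625 (8.31%) lower, and the median log2 ratio was again -0.11. Against all other kept nuclei, 1174 of 19585 genes (5.99%) were higher in members and 6936 (35.4%) lower, and Bcas1 was 108 times as high in members.

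Genes of commitment and of newly formed oligodendrocytes were higher in members than in both neighbouring stages. Of 30 listed genes, 18 had enough UMIs against oligodendrocyte precursors, and 16 of these were higher in members and 0 lower. The median log2 ratio was 2.96. Against oligodendrocytes 25 had enough UMIs, and 21 were higher in members and 0 lower. The median log2 ratio was 3.43. The list names genes known from this stage, and 9 of them were the markers used above to check the label.

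Bcas1 encodes a protein of premyelinating oligodendrocytes. It stood at 2556 CPM in members of the library labelled MR1 knockout and 2385 CPM in those of the 5XFAD library, and was detected in 53 of 60 and 32 of 34 members of those libraries. Oligodendrocyte precursors had 299.9 CPM in the library labelled MR1 knockout and 318 CPM in the 5XFAD library, and oligodendrocytes had 237 CPM and 261 CPM. Over both libraries Bcas1 was 8.04 times as high in members as in oligodendrocyte precursors (95% counting interval 6.77 to 9.60) and 9.83 times as high as in oligodendrocytes (8.72 to 11.1). Members of both libraries lay above every other class and library compared.

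Fyn is a kinase of the Src family that takes signals from axons to the cytoskeleton of the oligodendrocyte. Its level was 2579.8 CPM in members of the library labelled MR1 knockout and 2289 CPM in those of the 5XFAD library. In oligodendrocyte precursors it was 221 CPM in the library labelled MR1 knockout and 165 CPM in the 5XFAD library, and in oligodendrocytes 102 CPM and 79.1 CPM. The ratio of members to oligodendrocyte precursors was 12.5 (10.2 to 15.5) and that of members to oligodendrocytes 28.0 (23.7 to 33.2).

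Tcf7l2 is a transcription factor that partners beta-catenin and is needed for oligodendrocyte differentiation in the mouse. It had 1289.9 CPM in members of the library labelled MR1 knockout and 1849 CPM in those of the 5XFAD library. Oligodendrocyte precursors had 119 CPM in the library labelled MR1 knockout and 141 CPM in the 5XFAD library, and oligodendrocytes 40.7 CPM and 57.5 CPM. The members were thus 12 times as high as oligodendrocyte precursors (9.27 to 15.7) and 30.1 times as high as oligodendrocytes (24.2 to 37.7), the gene being low on either side of the stage.

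Frmd4a, which encodes a scaffold protein with a FERM domain involved in cell polarity, differed by more. It gave 7333 CPM in members of the library labelled MR1 knockout and 11819.8 CPM in those of the 5XFAD library. In oligodendrocyte precursors it gave 175 CPM in the library labelled MR1 knockout and 193 CPM in the 5XFAD library, and in oligodendrocytes 336 CPM and 366 CPM. The ratio was 51.2 (41.9 to 63.1) against oligodendrocyte precursors and 26.4 (24.3 to 28.8) against oligodendrocytes. The gene was uneven within the class: 42 of 60 members of the library labelled MR1 knockout and 28 of 34 of the 5XFAD library had a UMI, and 1 member of the 5XFAD library alone had 239. Frmd4a lies at chr2:4017717-4614043 on the plus strand (GRCm38, GENCODE M21). The annotated RNA Gm13187 lies inside it on the minus strand at chr2:4287595-4301167, and was 144 times as high in members as in oligodendrocyte precursors (55.5 to 533). Whether reads were counted by strand is not given in the sources used here, so reads of Frmd4a and Gm13187 cannot be told apart.

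The same holds for Bcas1 at chr2:170346991-170427845 on the minus strand and the antisense RNA Bcas1os2 within it at chr2:170356361-170380435. Bcas1os2 had 1329.7 CPM in members of the library labelled MR1 knockout and 1542 CPM in those of the 5XFAD library, 12.1 times the level of oligodendrocyte precursors (9.25 to 16.1).

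The other genes of the commitment list covered signalling, adhesion and matrix enzymes. Pik3r3, a regulatory subunit of phosphoinositide 3-kinase, had 2009 CPM in members of both libraries pooled, against 68.9 CPM in oligodendrocyte precursors and 72.9 CPM in oligodendrocytes. Nfasc encodes neurofascin, the adhesion molecule of nodes and paranodes, and had 2178 CPM in members, against 107 CPM in oligodendrocyte precursors and 369.6 CPM in oligodendrocytes. Tmem108 had 2757 CPM in members, against 286 CPM in oligodendrocyte precursors and 164 CPM in oligodendrocytes. All 3 were at least 5.89 times as high in members as in either neighbour. The sulfotransferase gene Ust, which acts on dermatan and chondroitin sulfate, had 1565 CPM in members, 221 CPM in oligodendrocyte precursors and 78.1 CPM in oligodendrocytes. Tns3, the focal adhesion protein tensin 3, had 1283 CPM in members, 169 CPM in oligodendrocyte precursors and 81.4 CPM in oligodendrocytes. Itpr2, a calcium release channel of the endoplasmic reticulum, had 783 CPM in members, 234 CPM in oligodendrocyte precursors and 38.1 CPM in oligodendrocytes. Its ratio to oligodendrocyte precursors, 3.35 (2.66 to 4.23), was thus lower than its ratio to oligodendrocytes of 20.6 (15.7 to 27.1). Outside the list, the uncharacterised RNA 9530059O14Rik had 1565 CPM in members, 30.8 CPM in oligodendrocyte precursors and 113 CPM in oligodendrocytes, and was detected in 51 of 60 members of the library labelled MR1 knockout and in all 34 of the 5XFAD library.

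**Figure D1:**
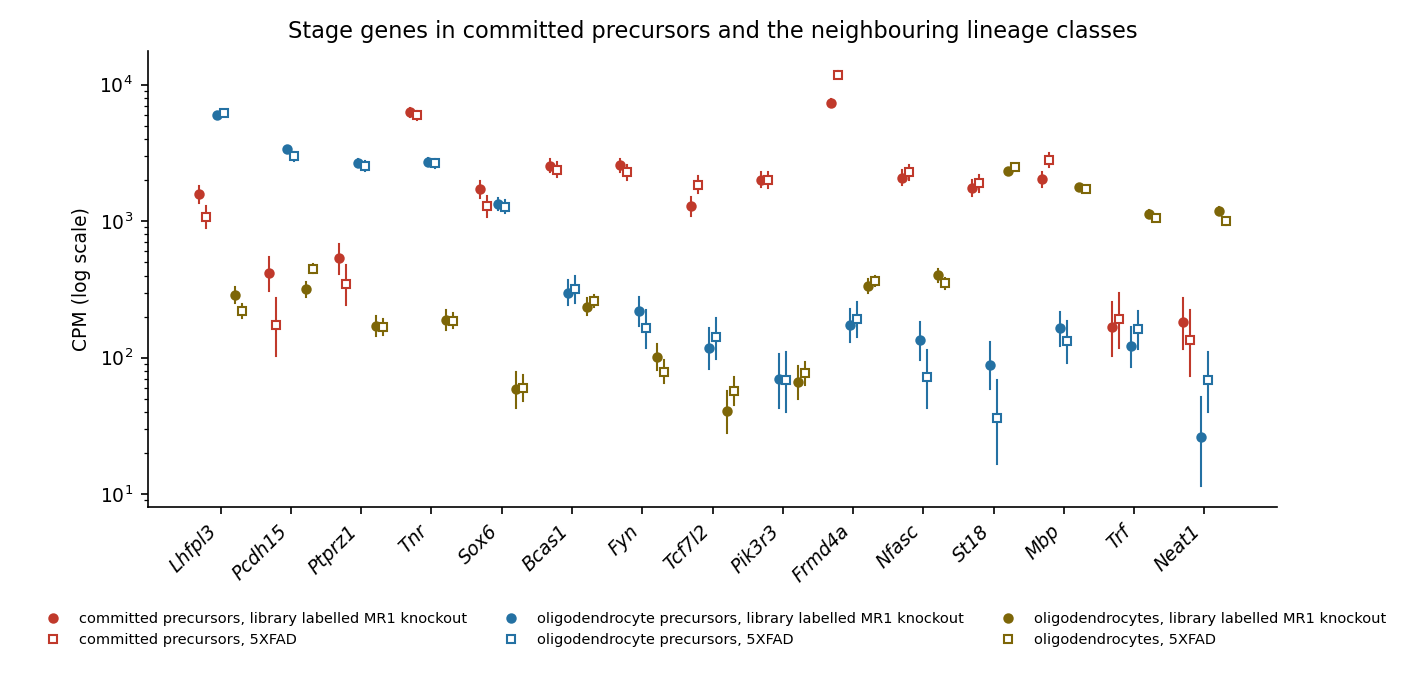
Level of 15 genes in CPM (log axis) in committed oligodendrocyte precursors, oligodendrocyte precursors and oligodendrocytes, each in the library labelled MR1 knockout and in the 5XFAD library, with points for summed nuclei and bars for 95% Poisson intervals. Bcas1, Fyn, Tcf7l2, Pik3r3 and Frmd4a are high in the members alone of the 3 classes, Lhfpl3, Pcdh15 and Ptprz1 are high in oligodendrocyte precursors, and Mbp and St18 are high in members and oligodendrocytes.

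Most genes of the precursor stage were lower in members than in oligodendrocyte precursors, and most were still above oligodendrocytes. Of 25 listed genes, 19 had enough UMIs against oligodendrocyte precursors, and 13 of these were lower in members and 1 higher, with a median log2 ratio of -1.71. Against oligodendrocytes, 18 had enough UMIs, and 11 were higher in members and 0 lower. The median log2 ratio was 1.87. Lhfpl3, a tetraspan membrane protein gene, had 1577 CPM in members of the library labelled MR1 knockout and 1082 CPM in those of the 5XFAD library. Oligodendrocyte precursors had 5982 CPM in the library labelled MR1 knockout and 6209.5 CPM in the 5XFAD library, and oligodendrocytes had 289 CPM and 221 CPM. The ratio to oligodendrocyte precursors was 0.222 (0.197 to 0.250) and that to oligodendrocytes 5.50 (4.76 to 6.34), so members lay between the neighbouring stages.

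Ptprz1, a receptor-type tyrosine phosphatase, had 448 CPM in members against 2613 CPM in oligodendrocyte precursors and 169 CPM in oligodendrocytes. The protocadherin Pcdh15 had 304 CPM in members, 3195 CPM in oligodendrocyte precursors and 401 CPM in oligodendrocytes, so members were already near the oligodendrocyte level. Xylt1, which starts glycosaminoglycan chains on proteoglycans, had 404 CPM in members, 1588 CPM in oligodendrocyte precursors and 98.3 CPM in oligodendrocytes. The proteoglycan gene Gpc5, outside the list, had 217 CPM in members against 3264 CPM in oligodendrocyte precursors, a ratio of 0.0666 (0.0493 to 0.0882). Pdgfra, the growth factor receptor of oligodendrocyte precursors and one of their rule genes, had 34.8 CPM in members against 1093 CPM in oligodendrocyte precursors, and was detected in 1 member of the library labelled MR1 knockout and 3 of the 5XFAD library. The RNAs 6330576A10Rik and Plce1, a phospholipase C gene, had 0 UMIs in all 94 members, against 277 CPM and 198 CPM in oligodendrocyte precursors.

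Some genes of the precursor list were not lower in members. Tnr, which encodes the matrix protein tenascin-R, was detected in all 60 members of the library labelled MR1 knockout and all 34 of the 5XFAD library. It had 6259 CPM in members of the library labelled MR1 knockout and 5967 CPM in those of the 5XFAD library. Oligodendrocyte precursors had 2706 CPM in the library labelled MR1 knockout and 2666 CPM in the 5XFAD library, and oligodendrocytes 189.5 CPM and 187 CPM. Members were 2.28 times as high as oligodendrocyte precursors (2.12 to 2.45) and 32.7 times as high as oligodendrocytes (29.2 to 36.6). The transcription factor Sox6 had 1518 CPM in members, 1314 CPM in oligodendrocyte precursors and 59.7 CPM in oligodendrocytes, a ratio of 1.16 (1.01 to 1.31) to the first and 25.4 (20.7 to 31.4) to the second. The adhesion molecule Dscam had 1600.1 CPM in members, 2479 CPM in oligodendrocyte precursors and 206 CPM in oligodendrocytes. Precursor genes therefore stood at unequal levels in members: Pcdh15 was near the oligodendrocyte level while Tnr and Sox6 were at or above the precursor level.

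Myelin genes divided into a set near the oligodendrocyte level in members and a set well below it. Of 32 listed genes, 16 had enough UMIs against oligodendrocyte precursors, and 8 of these were higher in members and 0 lower. The median log2 ratio was 1.04. Against oligodendrocytes, 25 had enough UMIs, and 12 were lower in members and 1 higher, with a median log2 ratio of -1.37. Mbp, myelin basic protein, had 2030.4 CPM in members of the library labelled MR1 knockout and 2807 CPM in those of the 5XFAD library. Oligodendrocyte precursors had 165 CPM in the library labelled MR1 knockout and 133 CPM in the 5XFAD library, and oligodendrocytes had 1789 CPM and 1735 CPM. Members were 15.8 times as high as oligodendrocyte precursors (12.6 to 20.2) and 1.36 times as high as oligodendrocytes (1.24 to 1.49).

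The zinc finger factor St18 had 1826 CPM in members, 65.3 CPM in oligodendrocyte precursors and 2426 CPM in oligodendrocytes. Fa2h, which hydroxylates the fatty acids of myelin lipids, had 257 CPM in members, 47.1 CPM in oligodendrocyte precursors and 225 CPM in oligodendrocytes. With Mbp, these genes were within 1.36-fold of the oligodendrocyte level in members. Gjc3, the gap junction protein connexin 29, had 1244 CPM in members, 498 CPM in oligodendrocyte precursors and 479 CPM in oligodendrocytes, and was the 1 listed gene higher in members than in both.

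Genes that stood lower in members than in oligodendrocytes included Mobp, a protein of compact myelin. It had 78.3 CPM in members against 541 CPM in oligodendrocytes, a ratio of 0.145 (0.0855 to 0.230). Trf, the iron carrier transferrin, had 178 CPM in members against 1078 CPM in oligodendrocytes, a ratio of 0.165 (0.118 to 0.225). Car2, carbonic anhydrase 2, had 73.9 CPM in members against 573 CPM in oligodendrocytes. Prr5l, which belongs to mTOR complex 2, had 43.5 CPM in members against 980.4 CPM in oligodendrocytes, a ratio of 0.0444 (0.0212 to 0.0817). Il33, an alarmin of mature oligodendrocytes, had 1 UMI in members of each library against 277 CPM in oligodendrocytes. The nuclear noncoding RNA Neat1 had 161 CPM in members, 45.3 CPM in oligodendrocyte precursors and 1067 CPM in oligodendrocytes. Members thus had the RNA of Mbp, St18 and Fa2h at nearly the level of oligodendrocytes, and that of Mobp, Trf, Car2, Prr5l and Neat1 at 0.165 times that level or less.

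Transcription factors of the lineage differed from oligodendrocyte precursors in both directions. Of 40 listed, 21 had enough UMIs against oligodendrocyte precursors, with 4 higher (Zeb2, Tcf7l2, Sox4 and St18) and 4 lower (Sox5, Nfia, Myt1 and Creb5) and a median log2 ratio of 0.21, beside 15.4% of all genes past the fold in either direction. Against oligodendrocytes, 29 had enough UMIs, with 6 higher (Sox10, Nkx2-2, Tcf7l2, Sox4, Sox6 and Tfeb) and 3 lower (Nkx6-2, Zfp536 and Creb5). Sox10, which the whole lineage needs, had 604 CPM in members, 384 CPM in oligodendrocyte precursors and 252 CPM in oligodendrocytes. Zeb2, a repressor of BMP and Wnt signalling that promotes myelination in the mouse, had 1735 CPM in members, 582 CPM in oligodendrocyte precursors and 1432 CPM in oligodendrocytes. Nkx2-2, a homeodomain factor that drives differentiation, had 130.4 CPM in members, 47.1 CPM in oligodendrocyte precursors and 24.9 CPM in oligodendrocytes. Myrf, the factor that switches on myelin genes, had 104 CPM in members, 12.7 CPM in oligodendrocyte precursors and 78.1 CPM in oligodendrocytes, but too few UMIs against oligodendrocyte precursors to be counted. Sox5 had 244 CPM in members against 801 CPM in oligodendrocyte precursors, unlike its relative Sox6. Olig2 had 60.9 CPM in members, 83.4 CPM in oligodendrocyte precursors and 27.7 CPM in oligodendrocytes, with wide intervals at this depth.

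Few genes of the signalling pathways known to time the transition had enough UMIs, and the counts below stand beside the 15.4% of all genes past the fold. In the Wnt list of 39 genes, 11 had enough UMIs against oligodendrocyte precursors, and the 2 higher in members, Tcf7l2 and Tcf7l1, are the transcription factors at its end. Tcf7l1 had 183 CPM in members, 36.3 CPM in oligodendrocyte precursors and 6.58 CPM in oligodendrocytes. The BMP list of 36 genes had 8 with enough UMIs, with Zeb2 higher and Fstl5, a follistatin-like protein gene, lower. Notch signalling keeps precursors undifferentiated. Its list also held other inhibitors of differentiation, and 8 of the 27 genes had enough UMIs. Rtn4 was higher and Dner and Maml3 lower in members. Rtn4, which encodes the myelin protein Nogo, had 1048 CPM in members, 371.5 CPM in oligodendrocyte precursors and 1198 CPM in oligodendrocytes. The median log2 ratios were -0.02 for the Wnt list and -0.08 for the BMP list. For the list of Notch genes and other inhibitors it was -0.29, beside -0.11 for all genes tested.

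Regulators of the cytoskeleton shape the branching of a differentiating oligodendrocyte. Of 40 genes that regulate actin, 28 had enough UMIs against oligodendrocyte precursors, with 4 higher (Fyn, Arhgap5, Arhgap35 and Cyfip2) and 1 lower (Itgav). Arhgap5 and Arhgap35 encode GTPase-activating proteins that act on actin regulators. Arhgap5 had 757 CPM in members, 114 CPM in oligodendrocyte precursors and 260.0 CPM in oligodendrocytes, and Arhgap35 had 678 CPM in members, 163 CPM in oligodendrocyte precursors and 88.4 CPM in oligodendrocytes. Of 32 microtubule genes, 21 had enough UMIs, with 5 higher (Map1b, Mapt, Tubb4a, Kif21a and Camsap2) and 0 lower, the median log2 ratio being 0.48. Map1b, a microtubule-associated protein of growing processes, had 1157 CPM in members, 241 CPM in oligodendrocyte precursors and 359 CPM in oligodendrocytes. Mapt, which encodes tau, had 778 CPM in members, 243 CPM in oligodendrocyte precursors and 807 CPM in oligodendrocytes.

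Among 43 matrix and guidance genes, 24 had enough UMIs against oligodendrocyte precursors, with 8 higher and 5 lower. The higher ones were Tnr, Sema4d, Sema5a, Plxnb3, Slit3, Ephb1, Nfasc and Mag, the last a rule gene of oligodendrocytes, and the lower ones Ptprz1, Robo1, Ntn1, Dcc and Epha5. Sema4d, a transmembrane semaphorin of oligodendrocytes, had 404 CPM in members, 27.2 CPM in oligodendrocyte precursors and 79.9 CPM in oligodendrocytes, and was thus higher in members than in both. Dcc, a receptor for netrin-1, had 491 CPM in members, 1529.6 CPM in oligodendrocyte precursors and 706 CPM in oligodendrocytes. Among 39 receptors and channels, 31 had enough UMIs, with 0 higher and 7 lower in members (Gria3, Grik1, Grin3a, Kcnd2, Scn1a, Scn3a and Cspg5), the list having a median log2 ratio of -0.52. The potassium channel gene Kcnd2 had 657 CPM in members against 3792 CPM in oligodendrocyte precursors, a ratio of 0.173 (0.146 to 0.204). Grin3a, an NMDA receptor subunit, had 87.0 CPM in members against 424 CPM in oligodendrocyte precursors. Gria2, the AMPA receptor subunit that blocks calcium entry, was not among the lower genes, with 2039 CPM in members against 1238 CPM in oligodendrocyte precursors.

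Few genes of the lipid and survival lists had enough UMIs. Of 37 cholesterol and sphingolipid genes, 10 had enough UMIs against oligodendrocyte precursors, with 3 higher (Elovl7, Ugt8a and Fa2h) and 0 lower. Elovl7, a fatty acid elongase, had 196 CPM in members, 19.9 CPM in oligodendrocyte precursors and 191 CPM in oligodendrocytes. Of 27 genes of sialic acid and choline phospholipid metabolism, the field of the rule genes Neu4 and Enpp6, 6 had enough UMIs and 0 were past the fold in either direction. Of 28 genes of cell death and survival, 9 had enough UMIs, with 0 higher and 3 lower, namely the neuregulin gene Nrg3 and the neurotrophin receptors Ntrk2 and Ntrk3. Tfeb, a factor that in the mouse limits survival at this stage, had 95.7 CPM in members, 10.9 CPM in oligodendrocyte precursors and 32.5 CPM in oligodendrocytes, with too few UMIs against oligodendrocyte precursors to be counted. Of 34 cell-cycle genes, 18 had any UMI in members, and together they gave 36 UMIs in members of the library labelled MR1 knockout and 39 in those of the 5XFAD library. Among 23 long noncoding RNAs, 16 had enough UMIs against oligodendrocyte precursors, with 0 higher and 2 lower in members (Mir99ahg and Lncpint).

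The members also differed among themselves in these lists. The commitment genes took a median of 2.24% of UMIs per member (range 0.440% to 7.81%) in the library labelled MR1 knockout and 3.86% (range 0.337% to 6.54%) in the 5XFAD library. The median in oligodendrocyte precursors was 0.322% in the library labelled MR1 knockout and 0.302% in the 5XFAD library. All 60 members of the library labelled MR1 knockout and all 34 of the 5XFAD library lay above the median of oligodendrocyte precursors, and 19 members of the library labelled MR1 knockout and 33 of the 5XFAD library lay above the highest oligodendrocyte precursor. In the library labelled MR1 knockout that limit was 1 nucleus at 2.97%, and 54 members lay above the next highest at 0.789%. The precursor genes took a median of 1.73% in members of the library labelled MR1 knockout and 1.39% in those of the 5XFAD library, against 3.07% and 3.13% in oligodendrocyte precursors of those libraries. Below the median of oligodendrocyte precursors lay 56 members of the library labelled MR1 knockout and 33 of the 5XFAD library. The myelin genes took 0.911% in members of the library labelled MR1 knockout and 1.27% in those of the 5XFAD library, against 2.47% and 2.41% in oligodendrocytes of those libraries. Below the median of oligodendrocytes lay 57 members of the library labelled MR1 knockout and 33 of the 5XFAD library. These shares leave out the 5 genes of the member rule but not genes that chose the neighbouring classes. The myelin list holds Mag, a rule gene of oligodendrocytes, so part of that difference was set by the rule of the class.

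**Figure D2:**
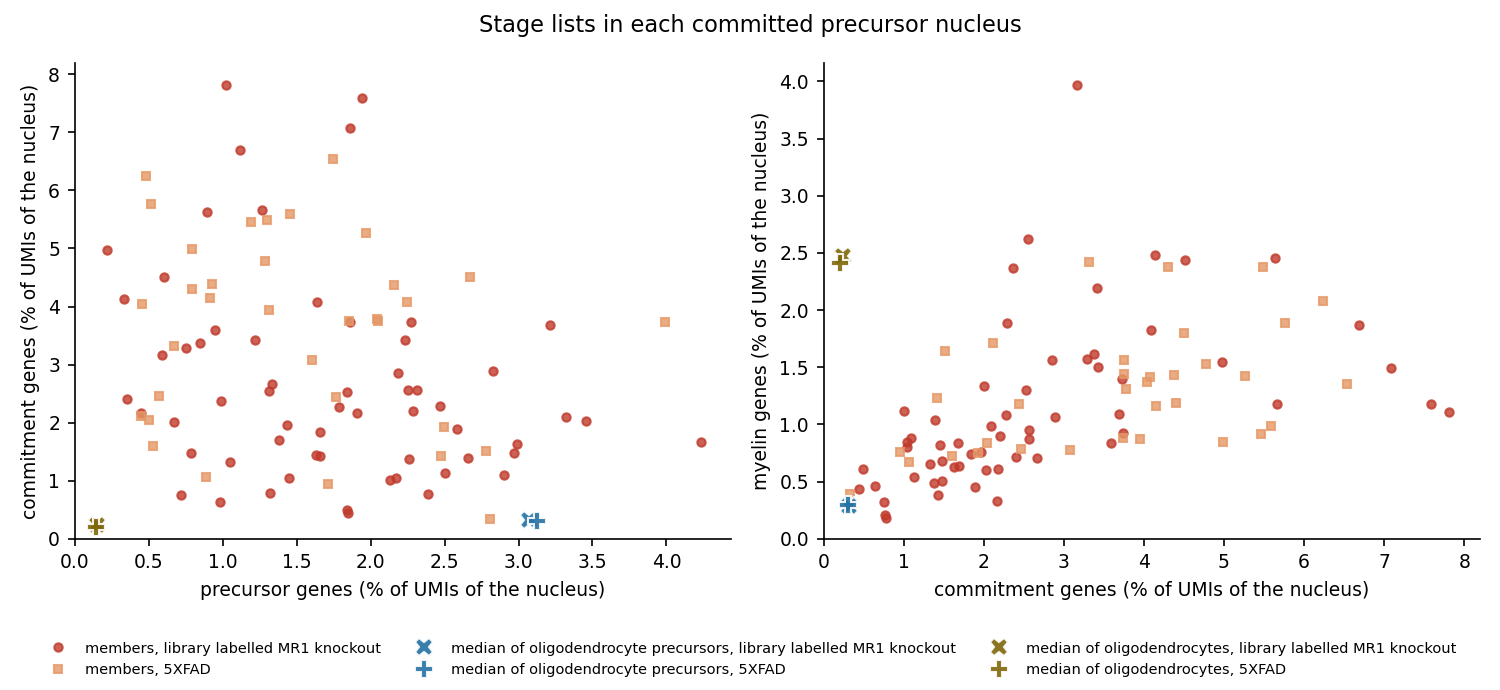
Each point is 1 member, with the percentage of its UMIs from precursor genes against commitment genes (left) and from commitment genes against myelin genes (right), for the library labelled MR1 knockout (60 members) and the 5XFAD library (34 members). Crosses mark the medians of oligodendrocyte precursors and oligodendrocytes, and all members lie above both class medians in commitment genes.

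Summed RNA of commitment and of myelin genes was higher in members with Enpp6 than in members without it. The 74 members with an Enpp6 UMI had a median of 2231 UMIs, and the 20 without one had a median of 1455 UMIs. Commitment genes summed to 33656 CPM in members with Enpp6 against 18768 CPM in those without, a ratio of 1.79 (1.65 to 1.95). Myelin genes summed to 12404 CPM in members with Enpp6 against 7285 CPM in those without, a ratio of 1.70 (1.49 to 1.95). Within the library labelled MR1 knockout, 46 members with Enpp6 over 14 without it, the ratio was 1.76 for commitment and 1.84 for myelin genes. Within the 5XFAD library, 28 members with Enpp6 over 6 without it, it was 1.70 for commitment and 1.43 for myelin genes. Precursor genes had a ratio of 0.832 (0.763 to 0.909) over both libraries, 0.962 (0.862 to 1.07) within the library labelled MR1 knockout and 0.656 (0.566 to 0.764) within the 5XFAD library, where the 6 members without Enpp6 limit the value.

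The myelin gene Mbp had 2639 CPM in members with Enpp6 against 869 CPM in those without, and the precursor gene Lhfpl3 had 1144 CPM in members with Enpp6 against 2578 CPM in those without. Enpp6 is a rule gene, so members without it were chosen through the other rule genes, and the split is a description. Deeper nuclei are also more likely to show Enpp6. When each member was thinned to 1000 UMIs and Enpp6 was called only then, 56 members had it and 33 did not. The ratio was 1.18 (1.09 to 1.27) for commitment genes, 1.398 (1.22 to 1.60) for myelin genes and 0.946 (0.851 to 1.05) for precursor genes. That of Mbp was then 2.05 (1.49 to 2.87) and that of Lhfpl3 0.614 (0.439 to 0.858). With Enpp6 called on all UMIs before thinning, 72 members had it and 17 did not, and the ratio was 1.53 for commitment, 1.56 for myelin and 0.806 for precursor genes. With the split at 2 Enpp6 UMIs, which gave 47 members on each side, it was 1.32 for commitment, 1.15 for myelin and 0.968 for precursor genes. These ratios for summed commitment and myelin genes are smaller than those over all UMIs. With the split at 2 Enpp6 UMIs, the ratio of Mbp was 1.41 (1.18 to 1.70) and that of Mag 0.890 (0.553 to 1.44).

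The libraries differ by label in MR1, in a mouse model of amyloid deposition. With 1 library per group, genotype cannot be told apart from library, mouse or depth. Members made up 0.270% of kept nuclei in the library labelled MR1 knockout (exact binomial 95% interval 0.206% to 0.347%) and 0.221% in the 5XFAD library (0.153% to 0.308%). The ratio of shares was 1.22 (0.789 to 1.92), a range from counting error that holds 1. Without the limits on neuronal and microglial genes it was 1.06 (0.697 to 1.61), with 61 members in the library labelled MR1 knockout and 40 in the 5XFAD library. The female nuclei, called by Xist without Y-linked UMIs, held 33 members of 11729 in the library labelled MR1 knockout and 11 of 6561 in the 5XFAD library, a ratio of 1.68 (0.827 to 3.68). The male nuclei held 9 members of 3668 in the library labelled MR1 knockout and 10 of 4122 in the 5XFAD library, a ratio of 1.01 (0.364 to 2.77). Thinned to 1000 UMIs, the rule found 28 members in the library labelled MR1 knockout and 20 in the 5XFAD library, and the ratio of shares was 0.999 (0.543 to 1.87), against 1.15 (0.739 to 1.83) for the same nuclei before thinning. The thinning left out 2083 kept nuclei of the library labelled MR1 knockout and 1015 of the 5XFAD library.

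Of the 3 lineage classes together, members were 8.52% (6.57% to 10.8%) in the library labelled MR1 knockout and 4.58% (3.19% to 6.34%) in the 5XFAD library, a ratio of 1.86 (1.20 to 2.93). Oligodendrocytes were 2.08% of kept nuclei in the library labelled MR1 knockout and 3.89% in the 5XFAD library, a ratio of 0.533 (0.471 to 0.603). Oligodendrocyte precursors were 0.818% in the library labelled MR1 knockout and 0.707% in the 5XFAD library, a ratio of 1.16 (0.907 to 1.48). The share of members within the lineage is taken over a total that is mostly oligodendrocytes, so the lower oligodendrocyte share of the library labelled MR1 knockout enters that ratio directly.

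Within members, 663 genes had at least 50 UMIs over both libraries. The level of 19 genes (2.87%) was at least 2 times as high in the library labelled MR1 knockout as in the 5XFAD library, and that of 18 (2.71%) at most 0.5 times as high, 5.58% in all, with a median log2 ratio of 0.00 over all 663. Scaling by trimmed means moved the split to 14 higher and 23 lower. At this depth a gene can pass the fold through counting error, so for several genes the ratio in all other kept nuclei is given beside it.

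Ttr, which encodes transthyretin and is made in the choroid plexus, stood furthest apart. It had 196 UMIs in members of the library labelled MR1 knockout and 26 in those of the 5XFAD library, or 1561 CPM against 249 CPM, a ratio of 6.27 (4.15 to 9.83). In all other kept nuclei the ratio was 5.49, so Ttr differed between the libraries in nuclei of every kind pooled. Several genes of the higher side had counting intervals clear of the ratio in other nuclei. They were named because their intervals lay far from 1, so this follows in part from the choice. Nrg1, a growth factor of the neuregulin family, had 1433 CPM in members of the library labelled MR1 knockout and 661 CPM in those of the 5XFAD library, a ratio of 2.17 (1.63 to 2.91) against 1.01 in all other kept nuclei. The guidance gene Sema6d had a ratio of 3.03 (1.65 to 5.92) against 0.853 in other nuclei. Adarb2, a relative of the RNA-editing enzymes, had a ratio of 3.14 (1.85 to 5.61) against 1.25, and the precursor gene Brinp3 one of 2.96 (1.91 to 4.71) against 1.33. The housekeeping genes Actg1, Hsp90aa1 and Tuba1a had ratios of 2.91, 2.36 and 2.33 in members against 1.42, 1.33 and 1.43 in other nuclei.

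On the lower side, several genes rested on 2 deep members of the 5XFAD library. The zinc transporter gene Tmem163 is of the commitment list and was detected in 25 members of the library labelled MR1 knockout and 27 of the 5XFAD library. It had 366 CPM in members of the library labelled MR1 knockout and 1082 CPM in those of the 5XFAD library, a ratio of 0.338 (0.235 to 0.481) against 0.775 in other nuclei, and 0.371 without the nucleus that held most of its UMIs. Frmd4b, a relative of Frmd4a, had a ratio of 0.365 (0.197 to 0.650) against 0.869 in other nuclei, and 0.400 without its leading nucleus. For other genes a single nucleus held much of the difference. A single member with 8300 UMIs held 32 of 40 UMIs of Gpc5 in the 5XFAD library, and the ratio was 0.208 with it and 0.957 without it. The same nucleus held 30 of 73 UMIs of the glutamate receptor gene Grm7, with a ratio of 0.421 with it and 0.658 without it, and 20 of 68 UMIs of Cnksr3, with 0.416 and 0.542. It also held 83 of 328 UMIs of Tmeff2, which did not reach the fold, with 0.530 and 0.653. A second member with 9213 UMIs led for Hs6st3, Hdac9 and Epha6, whose ratios of 0.227, 0.283 and 0.328 became 0.479, 0.494 and 0.541 without it. Members above 8000 UMIs, 1 in the library labelled MR1 knockout and 2 in the 5XFAD library, held 7.16% and 16.8% of member UMIs in those libraries, and without them 25 genes were higher and 8 lower of 548.

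**Figure D3:**
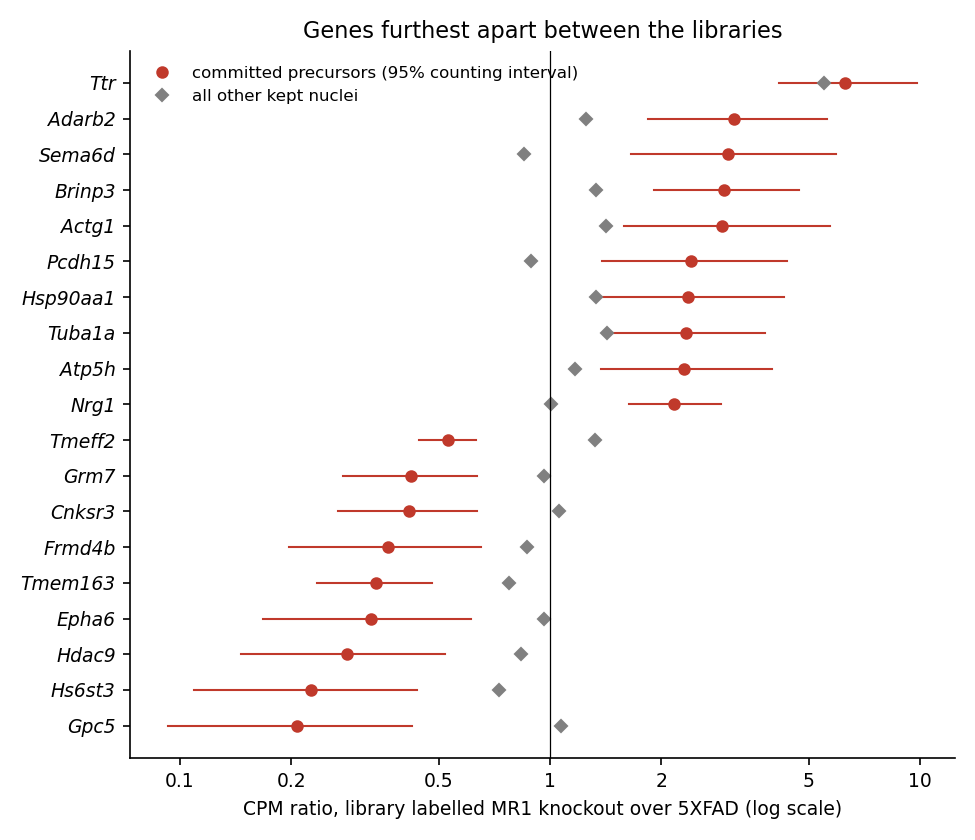
Ratio of CPM (log axis) between members of the library labelled MR1 knockout and of the 5XFAD library for 19 genes in committed oligodendrocyte precursors, with 95% counting intervals, and the same ratio in all other kept nuclei in grey. Ttr is high in members and in other nuclei alike, while Nrg1, Sema6d and Tmem163 lie apart from the value in other nuclei.

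Summed over all members, the stage lists had ratios between 0.809 and 1.14. Precursor genes had a ratio of 1.14 (1.06 to 1.22) over 25 listed genes, with 2 of 13 tested higher (Pcdh15 and Brinp3) and 0 lower. The ratio of Pcdh15 was 2.40 against 0.890 in all other kept nuclei, but 1.89 without the nucleus that held most of its UMIs. Commitment genes summed to 28442 CPM in members of the library labelled MR1 knockout against 35172 CPM in those of the 5XFAD library, a ratio of 0.809 (0.772 to 0.847), with 0 of 18 higher and 2 lower (Tmem163 and Cnksr3). The ratio of Frmd4a was 0.620 (0.569 to 0.676), and the summed list without it had a ratio of 0.904. Per member, the list without Frmd4a had a median of 1.82% of UMIs in the library labelled MR1 knockout and 2.80% in the 5XFAD library. Myelin genes had a ratio of 0.917 (0.850 to 0.990), with 1 of 10 higher and 0 lower. The higher one was Enpp2, the secreted lysophospholipase autotaxin, with 597 CPM in members of the library labelled MR1 knockout against 297 CPM in those of the 5XFAD library. Its ratio in all other kept nuclei is not given here, so whether the difference was particular to members was not tested. Among other lists, transcription factors had 0 of 11 past the fold, the Wnt list 0 of 3, the actin list 0 of 11 and the amyloid list 0 of 7. Tcf7l2 had a ratio of 0.698 (0.563 to 0.864) and did not pass the fold.

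The ratios of the stage lists differed between the female and the male mice. Precursor genes summed to 20723 CPM in female members of the library labelled MR1 knockout against 13614.5 CPM in those of the 5XFAD library, a ratio of 1.52 (1.38 to 1.69). In male members they summed to 15015 CPM in the library labelled MR1 knockout against 17552 CPM in the 5XFAD library, a ratio of 0.855 (0.739 to 0.989). Commitment genes had a ratio of 1.01 in female members, and in male members they summed to 23392 CPM in the library labelled MR1 knockout against 46343 CPM in the 5XFAD library, a ratio of 0.505 (0.453 to 0.562). Sums give deep nuclei more weight. The median share of commitment genes per member was lower in the library labelled MR1 knockout in either sex, at 2.20% against 3.74% in female members of the 5XFAD library, and at 2.29% against 4.29% in the male ones. For precursor genes the medians went the way of the sums, at 2.19% against 1.75% in female members and 1.44% against 1.91% in male members of the same libraries. Myelin genes had a summed ratio of 1.09 in female members and 0.924 in male members, but the medians were lower in the library labelled MR1 knockout in either sex, at 0.955% against 1.24% in female members and 0.850% against 1.43% in male members of the 5XFAD library. In members with no sex call, 18 of the library labelled MR1 knockout and 13 of the 5XFAD library, the ratios were 0.861 for precursor genes, 0.921 for commitment genes and 0.780 for myelin genes. Each sex of each library is 1 mouse, so genotype, mouse and the small number of nuclei cannot be told apart, and the difference between the sexes was not tested.

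**Figure D4:**
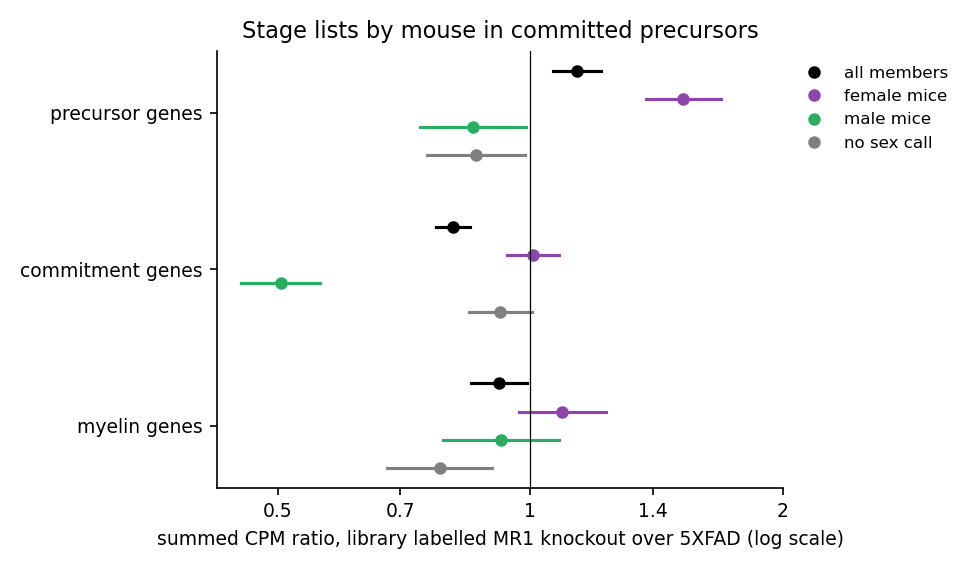
Ratio of summed CPM, library labelled MR1 knockout divided by 5XFAD library, for precursor, commitment and myelin genes in committed oligodendrocyte precursors, for all members, female, male and those with no sex call, with 95% counting intervals. Precursor genes lie above 1 in female members and below 1 in male members, and commitment genes are lowest in male members.

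Genes tied to the mouse model gave little in members. Mr1 had 0 UMIs in members of either library. Thy1, whose promoter drives the transgenes, had a ratio of 1.73 (1.17 to 2.58) in members against 1.55 over all kept nuclei. App had 844 CPM in members of the library labelled MR1 knockout and 977 CPM in those of the 5XFAD library, a ratio of 0.864 (0.652 to 1.15). The amyloid list, 23 genes of App, its processing and its clearance, had a ratio of 1.14 (1.03 to 1.28) when summed. Against oligodendrocyte precursors, 2 of its 14 tested genes were higher in members (Mapt and Bin1, a membrane-bending protein gene) and 1 lower (the lipoprotein receptor gene Lrp1). Apoe, the lipid carrier of astrocytes and microglia and a common free RNA, had 1799.5 CPM in members of the library labelled MR1 knockout and 1628 CPM in those of the 5XFAD library, below the 3094 CPM of oligodendrocyte precursors. Of 34 genes of antigen presentation, interferon response and disease-associated oligodendrocytes, 1 had enough UMIs between the libraries and did not pass the fold. The class I genes were sparse, with H2-D1 at 14 UMIs in members of the library labelled MR1 knockout and 2 in those of the 5XFAD library, and B2m at 15 UMIs and 5 UMIs.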

How the data were processed

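Raw UMI counts per gene and barcode, as the authors deposited them, were used; per the labels' protocols they come from nuclei of 20 mg of frozen hippocampus, with a 3' version 3.1 droplet kit, a target of 10000 nuclei and reads of 28 and 91 bases. Cell Ranger 7.0.0, Seurat and build mm10 are named per the submitters' processing notes. For the annotation release, strand setting, intron counting and use of Seurat nothing is given in these sources. Of 32285 gene IDs, 32235 matched GENCODE M21.

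UMIs were summed over nuclei of a class and library and scaled to CPM, with exact Poisson intervals, exact conditional binomial intervals for ratios and Clopper-Pearson intervals for shares, all at 95%. A gene was counted past 2-fold with at least 50 UMIs; Y-linked genes, Xist, Tsix and mitochondrial genes were left out. Named genes were those of the rule, Mr1, Thy1 and App, up to 8 of each list by UMIs, and the 10 highest and 10 lowest of each comparison by the interval bound nearest to 1; any other gene was named after its values were seen, and a few genes are not reported here. Members, classes and lists were chosen with earlier results of these data known, and the thresholds of the 2 comparison classes were set after the values were seen. Nuclei were called female from 2 Xist UMIs upward where Y-linked UMIs were 0, and male from 1 Y-linked UMI upward where Xist was 0. Doublets were scored with Scrublet in scanpy 1.11.5 at 0.8% per 1000 nuclei and kept; the caller's automatic threshold marked 16.3% of nuclei of the library labelled MR1 knockout and 0% of the 5XFAD library, so the expected rate, 17.6% and 12.2%, was used instead. Trimmed-mean scaling used edgeR 4.0.16, and all else Python 3.11.15 with scipy 1.17.1. The scripts were tested on simulated data.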

Additional observations from a re-analysis of the deposited data

Results flagged for a closer look

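Barcodes at or above 5% mitochondrial UMIs lie outside every comparison, yet some met all other conditions of the rule: 5 in the library labelled MR1 knockout and 13 in the 5XFAD library. Summed over members, 2 stage lists had ratios of library labelled MR1 knockout over 5XFAD on opposite sides of 1 in the mice of either sex. Precursor genes had a ratio of 1.52 in female and 0.855 in male members. Commitment genes without Frmd4a had a ratio of 1.18 in female and 0.603 in male members. The median per member of that commitment list was lower in the library labelled MR1 knockout in both sexes, at 1.91% against 2.50% in female members and 1.61% against 3.05% in male members of the 5XFAD library, so its opposite directions hold for the sums only. Each value is 1 mouse per genotype and the difference was not tested.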

How the results depend on the processing

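Among the values that answer a comparison, 77 stayed as reported under the alternatives tried, 39 moved and 6 turned round, and among single genes and list medians 1515 stayed, 192 moved and 5 turned round. The cause was not tested unless the alternative itself holds fewer nuclei or genes. The share of members (library labelled MR1 knockout over 5XFAD, 1.22) became 2.38 under 1% mitochondrial UMIs, with 23 members in the library labelled MR1 knockout and 4 in the 5XFAD library. The ratio of precursor genes (1.14) became 1.47 at a marker share of 0.3%, 1.401 under 1% mitochondrial UMIs, 1.52 in female nuclei, 0.855 in male nuclei and 1.06 with trimmed-mean scaling. That of commitment genes (0.809) became 0.860 at 6 marker UMIs, 0.851 at a marker share of 0.3%, 1.15 under 1% and 0.853 under 10% mitochondrial UMIs, 0.771 without doublets, 1.01 in female and 0.505 in male nuclei, 0.754 with trimmed means and 0.904 without Frmd4a. That of myelin genes (0.917) became 1.05 at a marker share of 0.3%, 1.002 under 1% mitochondrial UMIs, 0.843 without members that met another lineage rule and 1.09 in female nuclei. Of single genes, Tmeff2 became 1.70 under 1% mitochondrial UMIs, and Epha6 1.08 without doublets, while in male nuclei Adarb2 became 0.900, Epha6 3.60 and Hdac9 2.70.

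The number of genes past the fold between the libraries (37) became 21 in male nuclei, 7 when thinned to 1000 UMIs, 254 with a minimum of 20 UMIs and 6987 with a minimum of 1 UMI. Against oligodendrocyte precursors the number (484) became 129 under 1% mitochondrial UMIs, 278 in female and 112 in male nuclei, 272 when thinned, 916 with 20 UMIs and 3031 with 1 UMI. Against oligodendrocytes (925) it became 309 under 1% mitochondrial UMIs, 498 in female and 358 in male nuclei, 1555 with 20 UMIs and 4666 with 1 UMI. With Enpp6 split at 2 UMIs, the ratios became 0.968 for precursor, 1.32 for commitment and 1.15 for myelin genes, and thinning gave 1.53 for commitment genes with Enpp6 called on all UMIs. With Enpp6 called after thinning they were 0.946 for precursor, 1.18 for commitment and 1.398 for myelin genes. Without the limits on Gad1, Gad2, Inpp5d and Runx1, the library ratios became 1.33 for precursor, 0.915 for commitment and 0.994 for myelin genes, and 62 genes passed the fold. The alternatives without Frmd4a or Tnr, without these limits, with Enpp6 called after thinning, with the rule applied to thinned nuclei, and without deep or leading nuclei were chosen after seeing the data. No paired analysis was possible because each group has 1 library, so no replicate could be left out either. With 94 members in all, 663 genes reached 50 UMIs, which limits the comparison to these.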
